A study of Mus musculus with 3 samples.

Results

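The Notch pathway was described here by 10 genes, namely 4 receptors (Notch1, Notch2, Notch3 and Notch4), 4 ligands (Jag1, Jag2, Dll1 and Dll4) and 2 target genes (Hes1 and Hey1). They were taken as the gene spots of the array whose gene name is one of these 10. They are 10 of 31896 genes on the array, with 12 probes on 21 spots, of 39429 gene probes on 43020 spots per array. Notch1 and Notch2 had 2 probes each and the others 1, and Dll1 alone was printed on 10 spots.

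The tumours were 3 primary diffuse-type gastric cancers, labelled as biological replicates and taken at 12 months from mice of the genotype Atp4b-Cre+;Cdh1loxP/loxP;Trp53loxP/loxP. Each was labelled in red on its own 2-colour array. All 3 arrays carried one pool in green, made of 5 normal mucosae from Atp4b-Cre-;Cdh1loxP/loxP;Trp53loxP/loxP mice of 12 months. Both groups therefore carried the same floxed alleles, and only the tumour mice carried Cre, driven by the promoter of the parietal cell gene Atp4b. The mucosae, and per the labels not the tumours, had their stroma removed mechanically in 30 mM EDTA. In tissue RNA of this kind, fewer cells of a type and less RNA per cell cannot be told apart. Neither can be told apart from this difference in preparation. The pool is 1 control sample, so the spread among normal mice is not in any test below.

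Notch receptors are single-pass proteins that are cut when a Jagged or Delta-like ligand on a neighbouring cell binds them. The released intracellular part enters the nucleus, joins the DNA-binding protein Rbpj and a Mastermind co-activator, and switches on genes of the Hes and Hey families, which encode transcriptional repressors. In the stomach Notch signalling is known to maintain epithelial progenitor cells and to restrain their differentiation. Notch4 and Dll4 are known chiefly from endothelium and Notch3 from pericytes and vascular smooth muscle.

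Notch1, the receptor that fell, is called here through a single probe on chromosome 2 of mm9 (chr2:26319440-26319499, minus strand). The less bright probe of Notch2, which rose at its other probe, lies on chromosome 3 (chr3:97951233-97951292, plus strand). Both are shown because the receptor results depend on which probe of a gene is read. The letters are those deposited with the array, and exon or UTR was not assigned, since no annotation of mm9 was used here.
Notch1 probe: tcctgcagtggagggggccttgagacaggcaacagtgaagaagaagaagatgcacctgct
Notch2 probe: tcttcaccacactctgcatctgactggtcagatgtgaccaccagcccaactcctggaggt

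The comparison set the tumours of Cre-positive mice against normal mucosa of Cre-negative mice. Calls required both a limma adjusted p under 0.05 (two-sided, Benjamini-Hochberg over 19434 genes) and a change of 2-fold or more. All 10 members passed the filter on dim probes, Dll1 and Dll4 through the tumour channel alone. The receptors moved apart: Notch2 and Notch3 were called higher in the tumours and Notch1 lower, while Notch4 was not called. None of the ligands and neither target was called. The 2 members called higher among 10 stand beside 9.33% of all genes called higher, and the 1 called lower beside 9.68% called lower, so that 3 of 10 were called in either direction, beside 19.0% of all genes. The calls over all genes were 1814 higher and 1882 lower, and 7747 higher and 556 lower when arrays were centred on their median. At an adjusted p under 0.05 without regard to fold, 6 members passed, Dll1 among them, beside 47.4% of all genes. The median log2 ratio of tumour over pool was 0.65 over the members and 0.05 over all genes tested.

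The check of the model came out as follows. Cdh1, which encodes the adhesion protein E-cadherin, had a log2 ratio of -4.24 ± 0.85 (SD, n = 3; limma adjusted p = 0.00186). Trp53, the gene of the tumour suppressor p53, had -0.21 ± 0.15 and was not called (limma adjusted p = 0.161). Whether either probe lies in a deleted exon is not known here, so neither value checks the deletion itself. Of 7 parietal and chief cell markers 7 were called lower, with medians of -6.73, -6.93 and -6.99 in tumours 1, 2 and 3. Signals were well above background at 64.0 to 66.8% of gene spots in the tumour channel and 52.5 to 54.2% in the pool channel, and the number of arrays limits the precision. The 3 arrays lay on 1 slide scanned once with 1 dye orientation, so a dye effect cannot be told apart from the groups.

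Among the receptors, Notch1 had log2 signals of 8.08, 7.26 and 7.17 in tumours 1, 2 and 3, against 8.88, 8.70 and 8.84 in the pool on the same arrays. Every tumour lay below every measurement of the pool. The log2 ratios were -0.80, -1.43 and -1.67, a mean of -1.30 ± 0.45 (SD, n = 3; limma adjusted p = 0.00838), or 2.46-fold lower. Its call was lost when each array was centred on its median instead of by intensity-dependent (loess) normalization, at -0.39 (limma adjusted p = 0.128), a setting in which the median of all genes was 0.77. Relative to that median Notch1 lay at -1.16. The other Notch1 probe (chr2:26314630-26314689) was not well above background in either channel on any array and gave no test, with tumour signals of 5.96 to 6.01 and pool signals of 6.02 to 6.13 on the log2 scale.

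Notch2, a receptor closely related to Notch1, had log2 signals of 9.57, 10.37 and 9.45 in tumours 1, 2 and 3, against 7.99, 8.17 and 8.14 in the pool. All tumours lay above the pool. The log2 ratios of 1.58, 2.20 and 1.31 gave a mean of 1.70 ± 0.46 (SD, n = 3; limma adjusted p = 0.00449), or 3.24-fold higher, at the probe chr3:97953914-97953973. The second probe, whose letters are given above, was dim: its pool signal was not well above background on any array, and its log2 ratios were 0.29, 0.26 and 0.33. With 8.44% of all probes called higher, it was not called (mean 0.29 ± 0.03; SD, n = 3; limma adjusted p over 24164 probes = 0.0452), and the measured bound was at least 1.14-fold higher. With Agilent's processed signals, which have no added offset, this probe gave 1.41 and the brighter one 1.91. Taking the median of both probes gave 0.99 for Notch2, just under 2-fold (limma adjusted p = 0.00491). Notch2 minus Notch1 was 2.37, 3.64 and 2.97 log2 units on the 3 arrays, a mean of 2.99 ± 0.63 (SD, n = 3). This difference was not tested as such. Notch2 lay above 0 and Notch1 below 0 under all 13 alternative settings, but several of these could not change a sign. Some left both values as they were, and others only dropped an array where all arrays shared the sign. The authors' values repeated those from processed signals. The dim Notch2 probe alone lay below 0 with median centring and with spike-in centring.

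Notch3, the receptor of the vessel wall, had log2 signals of 9.26, 9.22 and 8.40 in tumours 1, 2 and 3, against 7.34, 7.45 and 7.50 in the pool. The tumours were all above the pool, tumour 3 by the least. The log2 ratios were 1.93, 1.77 and 0.90, with a mean of 1.53 ± 0.55 (SD, n = 3; limma adjusted p = 0.00853), or 2.90-fold higher (chr17:32257848-32257907). It was called higher under all 13 alternatives, with values from 1.34 to 2.46.

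Notch4, the endothelial receptor, had log2 signals of 9.29, 8.55 and 7.92 in the tumours, against 7.70, 7.65 and 7.72 in the pool. Tumour 3 was close to the pool while tumour 1 was far above it. The log2 ratios of 1.59, 0.89 and 0.19 gave a mean of 0.89 ± 0.70 (SD, n = 3), which was not called (limma adjusted p = 0.0602; chr17:34725120-34725179). Without tumour 3 the value was 1.24 and was called (limma adjusted p = 0.0406), and without tumour 1 it was 0.54.

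**Figure D1:**
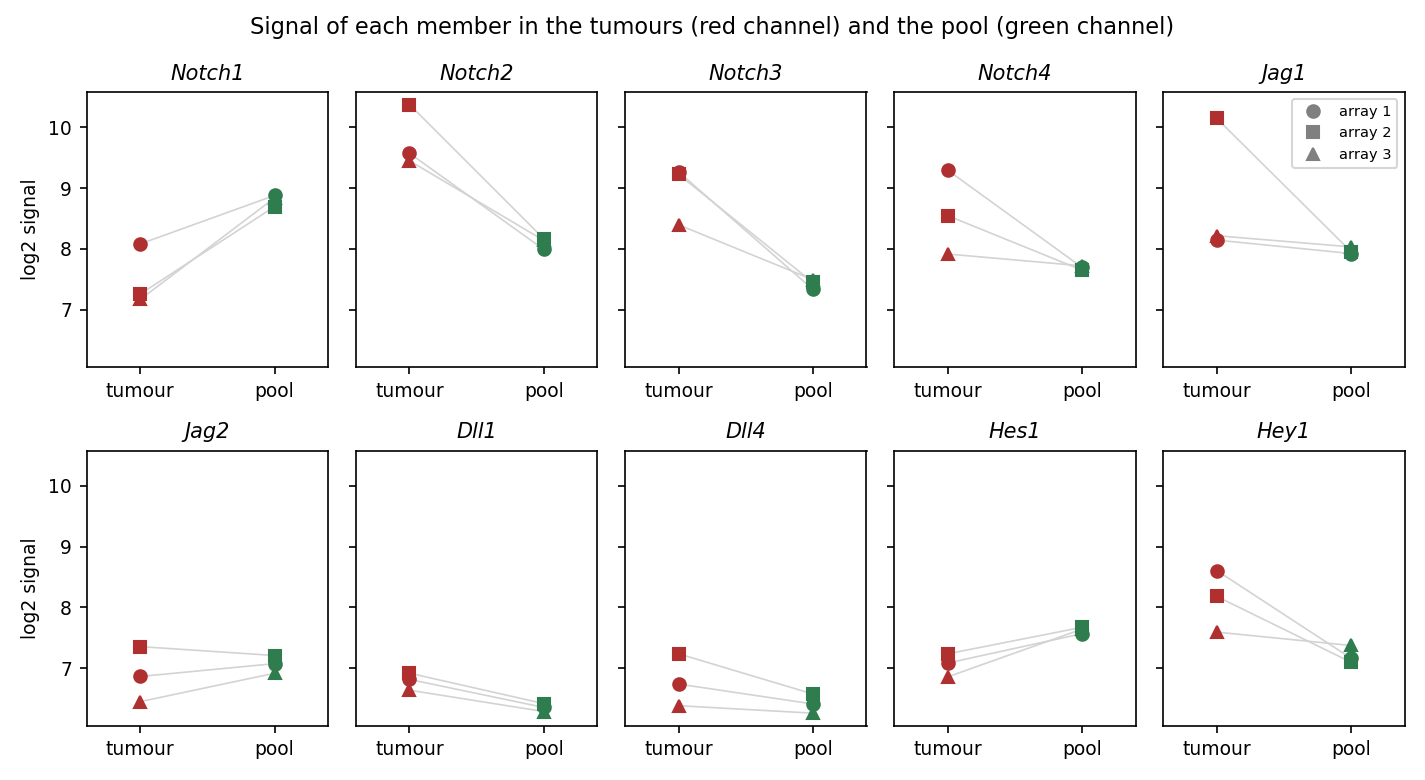
Log2 signal (vertical axes) of each of the 10 members in the tumours (red, left) and the pool (green, right). Signals are shown after loess and between-array quantile normalization of average log intensity. Values of 1 array have the same marker shape and are joined by a grey line. The pool values of a gene lie close together while the tumours spread, most for Jag1, where tumour 2 stands at 10.14 and the others at 8.15 and 8.22.

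None of the 4 ligands was called. Jag1, the Jagged ligand best known from epithelial and vascular signalling, had log2 signals of 8.15, 10.14 and 8.22 in tumours 1, 2 and 3, against 7.92, 7.96 and 8.03 in the pool. Only tumour 2 stood well above the pool. The log2 ratios of 0.22, 2.18 and 0.18 averaged 0.86 ± 1.15 (SD, n = 3; limma adjusted p = 0.179), and the mean without tumour 2 was 0.20. The probe lies at chr2:136907433-136907492.

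Jag2, the other Jagged ligand, had log2 signals of 6.87, 7.36 and 6.45 in the tumours, against 7.08, 7.21 and 6.92 in the pool. The groups overlapped. Its mean log2 ratio was -0.18 ± 0.31 (SD, n = 3; limma adjusted p = 0.364; chr12:114146887-114146946), and it turned to 0.26 with median centring.

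Dll1, a Delta-like ligand, was well above background in all 3 tumours and in the pool on no array. Its log2 signals were 6.82, 6.92 and 6.64 in tumours 1, 2 and 3, against 6.36, 6.42 and 6.29 in the pool. The SD of the log2 ratio over its 10 single spots was 0.08, 0.12 and 0.11 on the 3 arrays, and the SD between the 3 array means, each over many spots, was 0.08. The mean log2 ratio was 0.44 (limma adjusted p = 0.0197) and the measured bound at least 1.35-fold higher, below the 2-fold criterion (chr17:15504623-15504682). Dll4, the Delta-like ligand of endothelial cells, likewise was above background in all tumours and in the pool on no array, with a log2 ratio of 0.37 ± 0.27 (SD, n = 3; limma adjusted p = 0.0841; at least 1.29-fold higher; chr2:119160779-119160838). Its tumour signals of 6.74, 7.24 and 6.39 overlapped the pool signals of 6.42, 6.58 and 6.27.

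The sizes for these 2 ligands depended on how background was treated. Processed signals gave log2 ratios of 2.18 for Dll1 (limma adjusted p = 0.00114) and 2.11 for Dll4 (limma adjusted p = 0.0147), and both were then called higher. Centring on spike-in controls turned them to -0.29 and -0.34, which were not called. That setting also left out loess. With loess followed by centring on the tested genes, Dll1 and Dll4 lay at 0.40 and 0.33. Median centring in place of loess gave 0.56 and 0.51. The direction for Dll1 and Dll4 thus depended on the setting, and the cause was not tested.

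The 2 target genes lay on opposite sides of 0. Hes1, the classical Notch-induced repressor of the gut, had log2 signals of 7.09, 7.24 and 6.86 in tumours 1, 2 and 3, against 7.57, 7.67 and 7.64 in the pool. All 3 tumours lay below the pool, by less than 1 log2 unit. The log2 ratios were -0.48, -0.43 and -0.78, a mean of -0.57 ± 0.19 (SD, n = 3; limma adjusted p = 0.0176; chr16:30067820-30067879), under the 2-fold criterion. It was called lower at -1.20 with processed signals (limma adjusted p = 0.0109). The authors' values hold the same scanner ratio, so their call (limma adjusted p = 0.00733) is not a separate result. Hes1 lay at 0.074 with median centring.

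Hey1, a target known from endothelium and mesenchyme, had log2 signals of 8.60, 8.18 and 7.60 in the tumours, against 7.17, 7.10 and 7.38 in the pool. All tumours were above the pool, tumour 3 by little. The log2 ratios of 1.44, 1.08 and 0.22 averaged 0.91 ± 0.63 (SD, n = 3; limma adjusted p = 0.0440; chr3:8663432-8663491), just under 2-fold. Without tumour 3 the mean was 1.26 and Hey1 was called higher (limma adjusted p = 0.0213). Without tumour 1 the mean was 0.65 and without tumour 2 it was 0.83, and Hey1 was not called in either case. Hey1 was called under 5 of the 13 alternatives, among them processed signals at 1.39 and the authors' values, which hold the same scanner ratio.

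**Figure D2:**
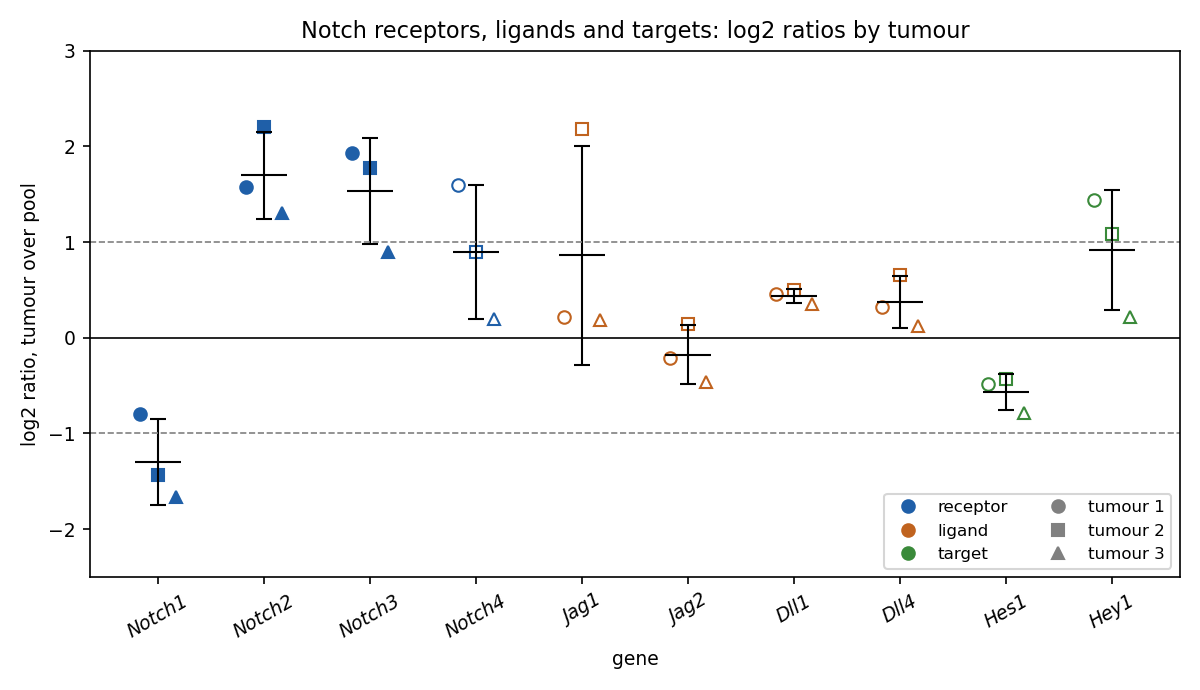
Log2 ratio of tumour over pool (vertical axis) for each member, with 1 marker shape per tumour, the mean as a horizontal bar and the SD (n = 3) as an error bar. Filled markers are the called genes Notch1, Notch2 and Notch3, dashed lines mark 2-fold, and the triangle of tumour 3 is the lowest of the 3 values for all 10 members.

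The signals of tumours and pool did not overlap for 8 of the 10 members, beside 62.7% of all genes. In 6 of them the tumours were higher, beside 33.0% of all genes, and in 2, Notch1 and Hes1, lower, beside 29.7%. The 6 include Dll1, which passed the filter on dim probes through the tumour channel alone. Over the members the SD of log2 signal was 0.14 to 1.13 between tumours and 0.04 to 0.16 between repeat measurements of the pool, which hold no spread between mice. The median SD of the log2 ratio was 0.45 over the members and 0.19 over all genes tested. Tumour 3 had the lowest ratio of the 3 arrays for 10 of 10 members, while it was the lowest for 36.0% of all genes.

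Tumour 3 also had the lowest median of the 3 tumours in each of the 6 marker lists, those of stromal and vascular cells among them. Of 12 endothelial markers 5 were called higher, with medians of 1.46, 0.95 and 0.45 in tumours 1, 2 and 3. Their summed signal was 10277 to 21939 in the tumours and 7620 to 7830 in the pool, where Tek was above background on no array. The von Willebrand factor gene Vwf had a mean log2 ratio of 2.79, the junction genes Cldn5 and Cdh5 2.49 and 1.66, and the transcription factor gene Sox17 1.99. Cdh5 lost its call without tumour 2, at 1.74, and Sox17 without tumour 3, at 2.22. The vascular endothelial growth factor receptor gene Kdr lay at -0.76 and was not called.

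Of 10 pericyte and smooth muscle markers 6 were called higher, with medians of 1.34, 1.65 and 0.83 and summed signals of 41110 to 83066 in the tumours, against 16498 to 20534 in the pool. They included the growth factor receptor gene Pdgfrb (1.84), the transgelin gene Tagln (1.72) and the desmin gene Des (1.64). The smooth muscle actin gene Acta2 (1.30) was also among them. Des was not called without tumour 2 (1.15) or without tumour 3 (1.58). The 4 markers not called were Rgs5 (-0.12), Myh11 (0.39), Cspg4 (0.96) and Cnn1 (1.67). In tumour 1 Myh11 lay at -0.77 and Cnn1 at -0.14. Of 8 fibroblast markers 7 were called higher, with medians of 3.43, 3.13 and 1.66 and summed signals of 47569 to 157019, against 15941 to 17580 in the pool. The lumican gene Lum (3.62), the fibroblast activation protein gene Fap (3.20) and the collagen genes Col1a1 (3.20) and Col3a1 (2.90) led them, and Col1a1 was not called without tumour 2 (limma adjusted p = 0.0532). Tumour 3 had the lowest ratio for 22 of the 30 markers of these 3 lists. All markers of these lists were above background in all tumours. The part of stromal cells in the member values was not tested. Tumour 3 was the lowest for all 10 members, also for Notch1, which was called lower. Per the labels only the mucosae of the pool had their stroma removed. In these marker and member values that preparation therefore cannot be told apart from the tumour state.

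Of 8 leukocyte markers 5 were called higher, with medians of 1.16, 1.70 and 0.91 in tumours 1, 2 and 3 and summed signals of 15583 to 17207 in the tumours, against 4290 to 5446 in the pool. Cd14 (3.72) and the macrophage genes Csf1r (2.21) and Adgre1 (2.07) were among them, with Csf1r at 1.10 by the median of its probes. Of 6 pan-epithelial markers 2 were called higher and 2 lower, with medians of -0.33, 0.18 and -0.57 in tumours 1, 2 and 3 and summed signals of 129544 to 224173 in the tumours and 230728 to 307189 in the pool. The claudin gene Cldn7 (3.94) and Epcam (1.20) rose, whereas the keratin genes Krt8 (-1.56) and Krt19 (-1.27) fell; both keratins lay above 0 with median centring. Without tumour 1 Krt8 (-1.39) and Krt19 (-0.82) were not called, nor were they without tumour 3 (-1.28 and -1.46) or with spike-in centring (-0.46 and -0.20).

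**Figure D3:**
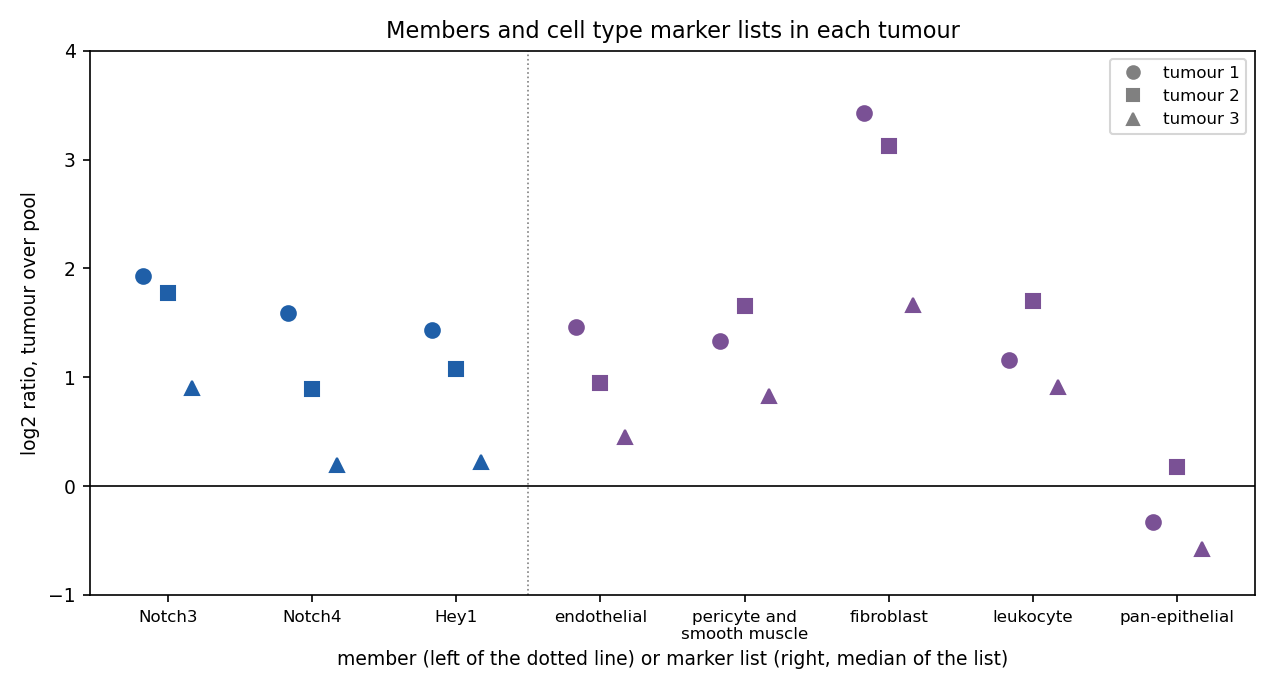
Log2 ratio of tumour over pool (vertical axis) in each tumour for 3 members (blue, left) and for the median of each marker list (purple, right), with 1 marker shape per tumour. Tumour 3 is the lowest for each of the 8 items shown, at 0.90 for Notch3 and 1.66 for the fibroblast list. It was also the lowest for the members not shown, Notch1 (-0.80, -1.43 and -1.67) among them.

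Other genes of the pathway were followed in 6 lists holding 59 tested genes, of which 7 were called higher and 4 lower and 48 were not called, with a median log2 ratio of 0.05. Over all genes 9.33% were called higher and 9.68% lower, so these counts lay near the background. Among 5 other ligands and ligand-like proteins, 2 were called higher. These were Mfap5 (3.01 ± 0.29) and Mfap2 (1.98 ± 0.74), microfibril proteins of the extracellular matrix that can bind Notch1 and are also made by fibroblasts (SD, n = 3 throughout). Mfap2 lay at 0.36 and was not called with the median of its probes. The other tested genes of this list, Dll3 (-0.17) and the Delta-like homologues Dlk1 (0.26) and Dlk2 (0.08), were not called.

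Of 5 enzymes that add sugars to Notch receptors 1 was called. Mfng, the manic fringe gene, whose product extends O-fucose and changes which ligand a receptor answers, had log2 ratios of 2.04, 2.32 and 1.36 in tumours 1, 2 and 3, a mean of 1.91 ± 0.50 (SD, n = 3; limma adjusted p = 0.00394). The other fringe genes Lfng (0.66) and Rfng (-0.45) were not called, nor were the O-fucosyltransferase gene Pofut1 (0.55) and the O-glucosyltransferase gene Poglut1 (0.21).

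Genes for the cleavage of Notch were not called higher in any case, and 2 of 9 were called lower, with a list median of -0.68. Furin, which encodes the convertase that makes the mature receptor and also cuts many other proteins, had log2 ratios of -3.40, -2.20 and -3.26 in tumours 1, 2 and 3, a mean of -2.95 ± 0.65 (SD, n = 3; limma adjusted p = 0.00248). Aph1b, a gamma-secretase subunit, had -1.24 ± 0.11 (SD, n = 3; limma adjusted p = 0.00170), and lay at -0.48 with median centring and at -0.73 with the median of its probes, where it was not called. The gamma-secretase genes Psenen (-0.72), Psen2 (-0.68) and Aph1a (-0.68) were not called, while the sheddase genes Adam10 (-0.14) and Adam17 (-0.06) lay near 0.

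Of 15 genes of Notch trafficking and ubiquitination 3 were called higher and 1 lower, all by little more than 2-fold. Neurl1b, a neuralized ligase that acts on ligands, had a mean log2 ratio of 1.10, the related Neurl2 1.04 and Numbl, a relative of the Notch inhibitor Numb, 1.04. The kinase gene Aak1 had -1.11. Without tumour 1 Neurl1b (0.96) and Neurl2 (0.86) were under 2-fold, and without tumour 3 Numbl (0.98) was. Neurl2 was also under 2-fold with spike-in centring (0.92), and Numbl with loess followed by centring on the tested genes. Aak1 lay at 0.032 with median centring, and was not called with spike-in centring (-0.82) or the median of its probes (-0.67). Numb itself lay at 0.04, and the Deltex genes Dtx1 (0.89) and Dtx3l (0.88) were not called.

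Of 20 genes of the nuclear complex and its co-repressors, 1 was called, the Groucho-type co-repressor gene Tle2 at -1.17 ± 0.51 (SD, n = 3; limma adjusted p = 0.0143), which lost its call without tumour 1 (-0.94) or tumour 2 (-1.13) and with median centring (-0.26). Rbpj, the DNA-binding partner of Notch, had log2 ratios of 0.38, 0.43 and 0.53, a mean of 0.45 ± 0.08 (SD, n = 3; limma adjusted p = 0.0187), below 2-fold. The Mastermind genes Maml1 (0.50) and Maml2 (0.59, a lower bound, as the pool was above background on no array) were not called either.

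**Figure D4:**
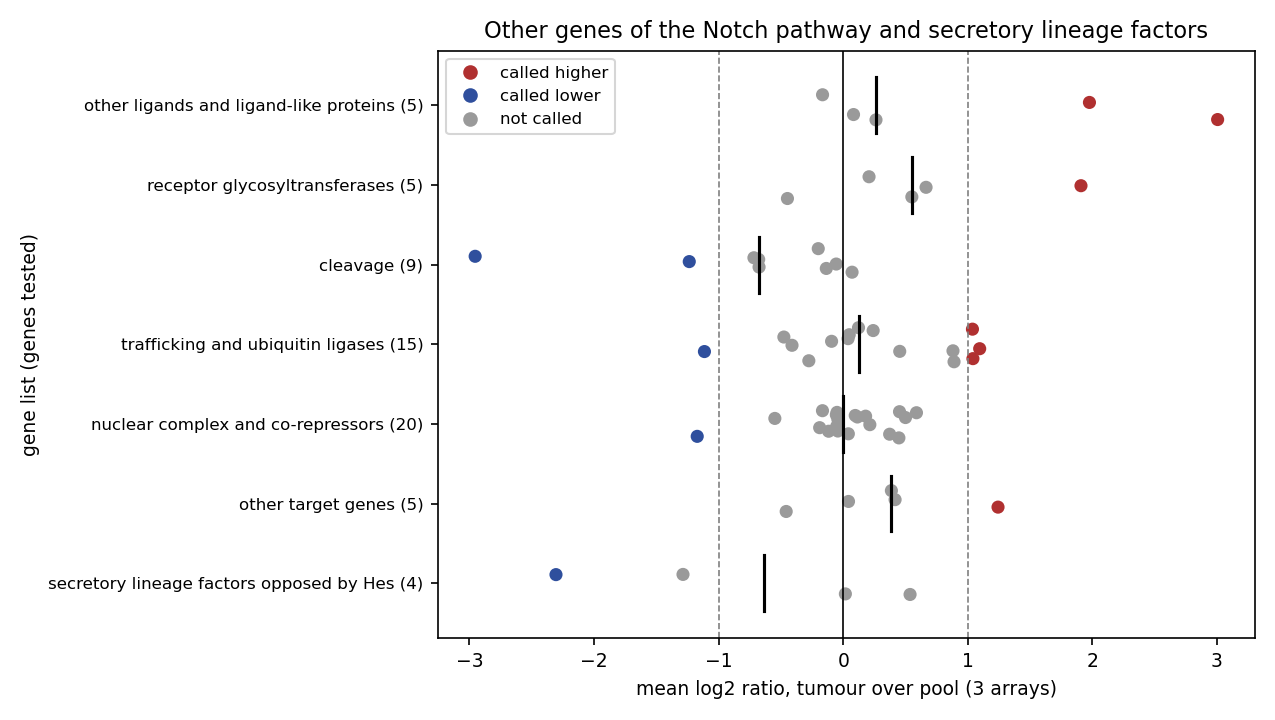
Mean log2 ratio of tumour over pool (horizontal axis) for the tested genes of 6 pathway lists and of the secretory lineage list (rows, with the number of genes tested), 1 point per gene, coloured by call, with a black bar at each list's median and dashed lines at 2-fold. Most points lie between the dashed lines, with Mfap5 at 3.01 and Furin at -2.95 at the ends.

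Of 5 other target genes tested, 1 was called higher. Heyl, a Hey-family gene known from vascular smooth muscle, had log2 ratios of 1.24, 1.68 and 0.80 in tumours 1, 2 and 3, a mean of 1.24 ± 0.44 (SD, n = 3; limma adjusted p = 0.00894). Its pool signal was above background on no array, and the bound under the main setting was at least 2.37-fold higher. The log2 ratio of Heyl was 2.92 from processed signals, 1.01 with spike-in centring and 1.02 without tumour 2. Hes5 (0.39), Nrarp (0.42), Hes7 (0.04) and Hes6 (-0.46) were not called, with the pool above background on no array for Hes5 and Nrarp, and Hes2, Hes3 and Hey2 did not pass the filter on dim probes. By the root mean square difference of the log2 ratios over the 3 arrays, among these 59 genes, the gene nearest to Notch2 was Mfng (0.28) and the nearest to Notch1 was Aak1 (0.32). For Notch3 it was Heyl, whose ratio is only a lower bound, so that distance is not given.

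Secretory lineage factors, which Hes proteins repress in the gut, were tested for 4 of 7 genes. Insm1, an endocrine lineage factor, was called lower at -2.31 ± 0.32 (SD, n = 3; limma adjusted p = 0.00121). Spdef, a factor of mucous cells, had log2 ratios of -2.01, -1.78 and -0.06 in tumours 1, 2 and 3 and was not called (limma adjusted p = 0.0644). Gfi1, with the pool above background on no array, was at least 1.45-fold higher and not called, and Atoh1, Neurog3 and Neurod1 did not pass the filter.

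The Rbpj core motif TGGGAA was searched on both strands from 250 bases before to 50 after each gene start in RefSeq's promoters (GRCm38.p6). It was found in 25.6% of 32851 windows. Of the members, the 8 receptors and ligands had an entry and 0 of these 8 held the motif, while the target genes Hes1 and Hey1 were not searched. Of the 8 other targets, 5 had an entry and 3 of these, Hes5, Hes7 and Hey2, held it, while Hes6 and Nrarp did not. Heyl, Hes2 and Hes3 had no entry and were not searched. The bases before the start of Hes5 (chr4:154960673-154960922, plus strand) are shown because they hold the motif once on each strand, in capitals, while Hes5 itself was not called.
Hes5: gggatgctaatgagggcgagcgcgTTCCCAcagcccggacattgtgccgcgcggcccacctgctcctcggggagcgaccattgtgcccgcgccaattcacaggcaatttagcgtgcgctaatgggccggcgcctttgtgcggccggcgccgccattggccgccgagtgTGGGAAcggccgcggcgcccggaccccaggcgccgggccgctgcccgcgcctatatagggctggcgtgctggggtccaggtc
A match of these letters is a description of the window and not a measured site.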

How the data were processed

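RNA of 3 tumours and of 1 pool was measured on 2-colour Agilent arrays. The deposited scanner files hold intensity values, made with Agilent Feature Extraction, version 10.7.3.1 per the file headers and 9.5.3 per the submitters' processing notes. Its log10 ratio column sets red against green, per the file headers. In the authors' value table, the log2 ratios of tumour against pool lay within 0.01 of the scanner's ratio at 99.8 to 99.9% of filled probes, with medians of -0.15 to -0.11. Between 48.3 and 49.6% of its probes are blank, and the reason was not stated. Flags of spot quality (other columns) are those deposited.

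Mean spot signals and median local backgrounds were corrected with normexp at an offset of 50 and normalised within arrays by loess, control spots at weight 0 (limma 3.58.1, R 4.3.3). The offset pulls ratios of dim genes towards 0. Gene spots with outlier flags (157 to 190 per array) were left out, spots of a probe were averaged, and probes were kept (24164) if every array was well above background in red, or every array in green. A gene is its brightest kept probe (19434 genes). Members were found by the gene name in the files, other genes by accession through a RefSeq table of GRCm38 (26049 of 39429 probes; 13380 kept the file's name). The log2 ratio of each gene was set against 0 by lmFit and eBayes (prior of 2.45 degrees of freedom). Signals are shown after loess and Aquantile. In a bound of at least N-fold, the dim group stands at its signal or, where that was less, at the least signal well above background on that array. For Dll1, Dll4, Heyl, Maml2 and Gfi1 the bound equals the measured ratio. Such bounds hold for the main setting alone, as other settings gave smaller or reversed ratios for some genes. They are also open to dye bias.

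The script was tested on simulated data. Members and lists were chosen with earlier results of these data known. All members are named, with Cdh1, Trp53 and, of each list, up to 4 called genes of largest absolute log2 ratio; other genes were named after their values were seen, and some genes counted in the lists are not reported here by name. In the parietal and chief cell list these were Chia1 (-8.16), Cblif (-7.89), Kcne2 (-7.51) and Atp4b (-6.83). The alternatives changed the offset, the background correction, the centring, the dim-probe filter, the choice of probe, the variance prior or the arrays used, or took the authors' values.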

Additional observations from a re-analysis of the deposited data

How the results depend on the processing

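Results were refitted under 13 alternatives. In 2 of them (the authors' values, and the filter on both channels) some genes, such as Dll1, Dll4 and Heyl, had no value. Genes called higher numbered 1814, with 3192 at an offset of 0, 3738 with processed signals, 7747 with median centring and 2795 with spike-in centring. Genes called lower numbered 1882, with 3079 with processed signals, 556 with median centring and 2882 with the authors' values. Members called higher numbered 2, with 5 each at an offset of 0, with processed signals and with median centring, 1 with the median of probes, and 2 to 4 without 1 replicate (4 without tumour 3). Members called lower numbered 1, with 2 each with processed signals and the authors' values, 0 with median centring, and 1 without any 1 replicate. The median of all genes was 0.77 with median centring and -0.08 with spike-in centring.

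Signs turned for Jag2 (0.26), Hes1 (0.074), Aak1 (0.032), Krt8 (0.39) and Krt19 (0.65) with median centring and for Dll1 (-0.29) and Dll4 (-0.34) with spike-in centring. The dim Notch2 probe lay at -0.058 and -0.91 with these 2 settings. The causes were not tested. With median centring Jag1 (1.83), Notch4 (1.79) and Hey1 (1.68) were called higher. No paired analysis was possible because the tumours have no matched normal tissue, although each log2 ratio sets a tumour against the common pool on its own array. Signal over background limits Dll1, Dll4, Heyl and the second probes of Notch1 and Notch2.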
